A study of Danio rerio with 15 samples.

Results

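Muscle contracts through sarcomeres, in which myosin thick filaments pull on actin thin filaments that alpha-actinin anchors at the Z disc. Calcium released from the sarcoplasmic reticulum by ryanodine receptors binds troponin C, which moves tropomyosin off the actin, and SERCA pumps return the calcium to the store while parvalbumin buffers it. Creatine kinases supply ATP to the filaments, and zebrafish keep separate fast, slow and cardiac copies of many of these genes, often as a pair of duplicates. The 96 genes described here are the rows of the deposited tables, of 24609 in all, whose names begin with the symbols of the sarcomeric and non-muscle myosin chains, troponins, tropomyosins, muscle actins, alpha-actinins, SERCA pumps, ryanodine receptors, creatine kinases, myosin-binding proteins, Smyd1 or parvalbumins. By chosen lists of names they were divided into 32 fast skeletal, 11 slow skeletal and 17 cardiac genes, 20 genes of non-muscle cells, smooth muscle or other tissues, and 16 others in no list. The lists split families: tnnt2a, tnnt2d and actc1a are in the cardiac class, and tnnt2b, tnnt2c, tnnt2e and actc1c among the others. Counts and medians of the cardiac class thus leave out these 4 genes. Myosin genes with names such as smyhc, myhz or vmhc, and the tropomyosin tpma, do not match the symbols and are not among the 96. Shares of counts and rankings of the fast, slow and cardiac classes leave them out too. Enough reads to be tested were present for 91 of the 96 (31 fast, 10 slow, 16 cardiac, 18 non-muscle and 16 other), and mylpfa, ryr2b, pvalb6, pvalb9 and tnni1a were not tested.

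RNA came from whole zebrafish larvae of the TL strain, 4 days post fertilization, in 5 groups of 3 samples. The groups were larvae mutant in tfeb, tfe3a and tfe3b (triple mutants) injected with zymosan A, uninjected triple mutants, uninjected rraga mutants, zymosan A injected wild type and uninjected wild type. Tfeb and Tfe3 are transcription factors that turn on lysosome genes, rraga encodes the GTPase RagA that brings mTORC1 to the lysosome, and zymosan A is a yeast cell wall preparation that provokes inflammation. Every group was raised at 28.5 °C with methylene blue and PTU, which blocks pigment. Injected larvae were looked at, and rraga mutants picked out, under a confocal microscope before freezing. The kind of lesion each line carries and the number of larvae per sample are not given in the sources used here. No group was injected without zymosan, so the injection and the zymosan cannot be told apart. Handling under the microscope likewise cannot be told apart from the injection or from the rraga genotype. The labels call the samples biological replicates. The spread behind each p-value is that among such samples within groups, estimated over all 5 groups of 3 together. In RNA from whole larvae, fewer cells of a type and less RNA per cell cannot be told apart.

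The libraries held 12314113 to 17566540 counts on genes. Levels are CPM, the counts of a gene relative to the TMM-scaled size of its library, and fold changes are log2 values with standard errors from edgeR's quasi-likelihood fit over 19006 genes; a gene was called at a Benjamini-Hochberg adjusted p under 0.05 over all of them. Transcript of tfe3b was at 0, 0.0677 and 0.859 CPM in zymosan-injected and 0.138, 0.111 and 0.0751 CPM in uninjected triple mutants, against 2.18, 3.22 and 3.15 CPM in zymosan-injected and 1.15, 1.81 and 2.09 CPM in uninjected wild type. Its levels in triple mutants lay below those of the wild type libraries, while tfeb (0.01 ± 0.20, adjusted p = 0.994) and tfe3a (-0.42 ± 0.38, adjusted p = 0.581) did not pass the test in uninjected larvae, and rraga was higher in rraga mutants (0.83 ± 0.14, adjusted p = 0.000338). Since the lesions are not known here, levels of these transcripts neither bear out nor contradict the labels of tfeb, tfe3a and rraga. Of 5 cardiomyocyte markers 2 were under 1 CPM in every library, among them myh6 at 0 to 0.986 CPM. The others were low, with myl7 the highest of them at 4.74 to 15.1 CPM over the 15 libraries. The 5 epidermal markers summed to 4772 to 6002 CPM in uninjected triple mutants, against 6297 to 6992 CPM in uninjected wild type, with 3 lower and 1 higher by the test. The 4 lens markers summed to 887 to 974 CPM in uninjected triple mutants, against 1016 to 1224 CPM in uninjected wild type, with 2 lower and 1 higher. With zymosan 2 epidermal markers were lower and 1 higher, and 1 lens marker was lower and 1 higher, in triple mutants against wild type. The part of these cells in the results below was not tested.

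The muscle genes took 10.2% to 12.3% of each library's counts. Fast genes made up nearly all of this, at 9.74% to 11.7% of counts, while slow genes took 0.162% to 0.199% and cardiac genes 0.0856% to 0.106%. The fast share was 10.7%, 10.3% and 11.2% in zymosan-injected triple mutants, 11.1%, 9.74% and 10.6% in uninjected triple mutants, 11.3%, 11.4% and 11.05% in rraga mutants, 11.7%, 11.7% and 10.5% in zymosan-injected wild type, and 11.2%, 11.2% and 11.7% in uninjected wild type. One library of 2 groups stood apart, the second uninjected triple mutant library and the third zymosan-injected wild type library. The share of counts from the mitochondrial genome was lowest in the same libraries within their groups, at 7.99% against 10.5% and 9.12% in uninjected triple mutants, and at 9.40% against 14.0% and 13.5% in zymosan-injected wild type. What the mitochondrial share adds to the differences in fast genes was not tested. For many of the muscle genes named below, fits without these libraries are given. For the further genes that work with them, counted at the end, such fits are not given.

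**Figure D1:**
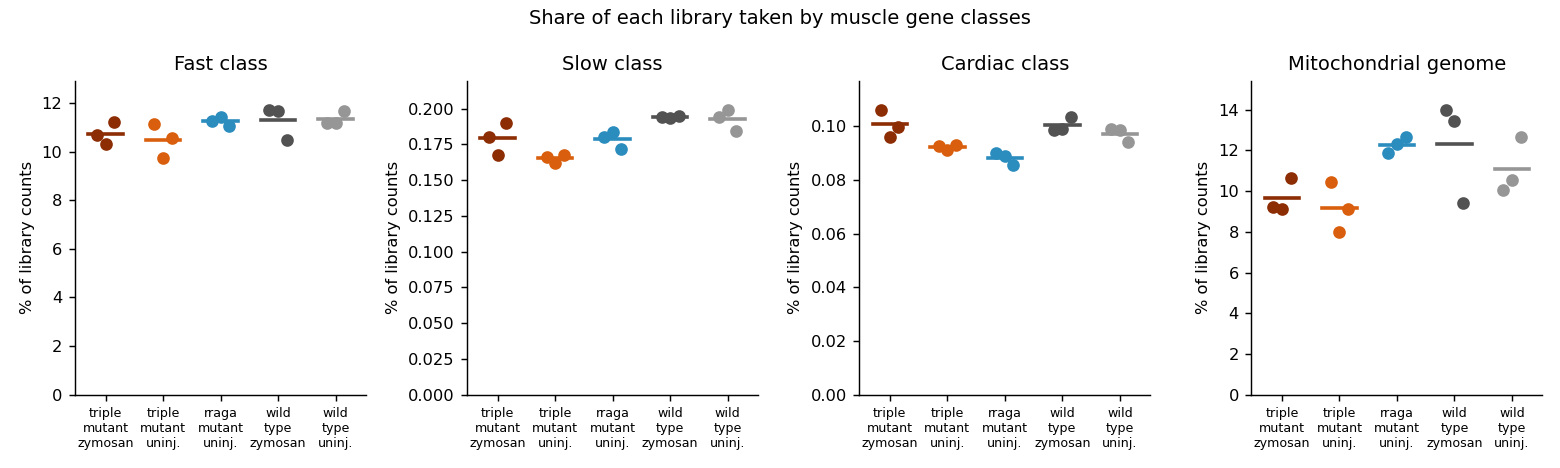
Percentage of each library's counts from fast, slow and cardiac genes and from the mitochondrial genome (y axes), for the 5 groups of 3 libraries; points are libraries and bars are means. Fast genes span 9.74% to 11.7% of counts, and the lowest library of the uninjected triple mutants and of the zymosan-injected wild type in the fast panel is also the lowest of its group in the mitochondrial panel.

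Set per kilobase of gene, the highest levels over all libraries were those of pvalb1, the main calcium buffer of fast fibres, at 22705 CPM per kb, and of actc1b, an alpha actin, at 19502 CPM per kb. The fast light chain mylz3 followed at 8495 CPM per kb, the muscle creatine kinase ckmb at 5434 CPM per kb, the fast light chain mylpfb at 3203 CPM per kb, and the fast SERCA pump atp2a1 at 3143 CPM per kb. In the slow class the highest was the light chain myl13, at 576 CPM per kb. In the cardiac class it was actc1a on chromosome 20, at 225 CPM per kb. The cardiac class is one of gene names. Over all libraries actc1a on chromosome 20 averaged 359 CPM and tnnt2d 126 CPM, against 8.90 CPM for the heart marker myl7. How much of the RNA of this class came from the heart was not tested. The regulatory light chain mylpfa and the parvalbumin pvalb2, both typical of fast muscle, were near 0 in the deposited counts. The sources used here do not give how reads shared by near-identical copies were counted, so levels of the muscle actins, parvalbumins and the tnni2a cluster are uncertain as to which copy they came from.

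Uninjected triple mutants had lower levels of 26 and higher levels of 5 of the 91 tested muscle genes than uninjected wild type, 34.1% in all, against 9.77% of all genes called in either direction, 5.84% lower and 3.93% higher. Most of these changes were modest. In the fast class 11 of 31 genes were lower and 1 higher (median log2 fold change -0.34), in the slow class 3 of 10 were lower (median -0.14), and in the cardiac class 1 of 16 was lower and 1 higher (median -0.25). In the other class 6 of 16 were lower and 1 higher (median -0.39), and in the non-muscle class 5 of 18 were lower and 2 higher (median -0.29). No test of a difference between the classes was made. The largest differences were those of single copies of duplicated genes and are described first.

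The largest difference was at actc1c, a gene annotated as an alpha cardiac actin (chromosome 25, 14087045 to 14125498 on GRCz11). It was at 0.138, 0 and 0 CPM in the 3 uninjected triple mutant libraries, against 29.0, 25.04 and 30.5 CPM in uninjected wild type. Zymosan-injected larvae gave 0.223, 0 and 0.143 CPM in triple mutants and 40.5, 18.02 and 28.3 CPM in wild type, so in both conditions the transcript was all but missing from the mutants and the groups did not overlap. The same held for 29.0% of all tested genes in uninjected and 27.0% in zymosan-injected larvae. With 2 counts in uninjected triple mutants and 1135 in uninjected wild type, the ratio corrected for library size was 643, with a counting interval (95%) of 178 to 5320. The fitted log2 fold change was -7.82 ± 0.41 in zymosan-injected larvae (adjusted p = 3.57e-12). The most abundant actin, actc1b, did not pass the test in uninjected larvae and was at 30062 ± 4473 CPM in uninjected triple mutants and 35996 ± 2848 CPM in uninjected wild type (SD, n = 3 each; -0.26 ± 0.14, adjusted p = 0.296).

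The alpha-actinins are the cross-linkers of the Z disc, and zebrafish fast fibres use actn3a and actn3b. In uninjected larvae actn3a (chromosome 21, 27382893 to 27404978 on GRCz11) was at 738, 632 and 714 CPM in triple mutants, against 95.8, 67.1 and 91.0 CPM in wild type. With zymosan it was at 756, 746 and 923 CPM in triple mutants, against 76.6, 123 and 49.8 CPM in wild type. The gene was thus several times higher in the triple mutants in both conditions with no overlap (3.04 ± 0.22, adjusted p = 8.09e-10 uninjected; 3.28 ± 0.22, adjusted p = 2.25e-10 with zymosan). Groups without overlap were found for 29.0% of all tested genes uninjected and 27.0% with zymosan.

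The other copy, actn3b (chromosome 7, 6969909 to 7133475 on GRCz11), moved the other way and far less. It was at 982, 801 and 903 CPM in uninjected triple mutants, against 1219, 1226 and 1344 CPM in uninjected wild type (-0.50 ± 0.12, adjusted p = 0.00797). Without the second uninjected triple mutant library the actn3b difference did not pass (adjusted p = 0.0536). Of the summed actn3a and actn3b CPM, actn3a made up 46.0% in zymosan-injected triple mutants, 43.7% in uninjected triple mutants, 15.2% in rraga mutants, 5.92% in zymosan-injected wild type and 6.28% in uninjected wild type. The sum itself averaged 1590.2 ± 145 CPM in uninjected triple mutants and 1347.5 ± 76.3 CPM in uninjected wild type (SD, n = 3 each).

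The mitochondrial creatine kinases pass phosphate from mitochondria to creatine, ckmt1 being the ubiquitous form and ckmt2a and ckmt2b the sarcomeric form. At ckmt1 (chromosome 25, 21829777 to 21847553 on GRCz11) uninjected triple mutants had 2.14, 1.73 and 1.05 CPM, against 42.0, 40.7 and 49.6 CPM in uninjected wild type. Zymosan-injected triple mutants had 1.49, 1.90 and 2.86 CPM, against 45.5, 41.9 and 53.6 CPM in zymosan-injected wild type. This decrease was similar in size in both conditions (-4.73 ± 0.21, adjusted p = 1.98e-13; -4.49 ± 0.20, adjusted p = 3.5e-13).

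For ckmt2a the levels were 13.5, 22.3 and 14.3 CPM in uninjected triple mutants, against 31.0, 29.1 and 33.4 CPM in uninjected wild type (-0.89 ± 0.17, adjusted p = 0.00107). With zymosan they were 7.21, 7.31 and 9.66 CPM in triple mutants, against 25.7, 28.3 and 20.3 CPM in wild type (-1.62 ± 0.18, adjusted p = 1.18e-06). The groups overlapped in neither condition, nor did those of 29.0% of all tested genes uninjected and 27.0% with zymosan. The third gene, ckmt2b, was lower in uninjected triple mutants (-0.52 ± 0.13, adjusted p = 0.0114), a call lost without the first or the second triple mutant library (highest adjusted p = 0.0853). Summed, the 3 mitochondrial creatine kinases averaged 73.0 ± 6.51 CPM in uninjected triple mutants and 153.7 ± 8.64 CPM in uninjected wild type (SD, n = 3 each). The cytosolic creatine kinases differed less: ckma was lower (-0.51 ± 0.14, adjusted p = 0.0235) and the more abundant ckmb did not pass (-0.13 ± 0.14, adjusted p = 0.661). The ckma call passed in 1 of the 6 fits that each leave out a library (highest adjusted p = 0.147).

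Troponin T ties troponin to tropomyosin, and tnnt2e (chromosome 4, 7508316 to 7544687 on GRCz11) was the troponin T gene that rose. It was at 52.0, 42.4 and 53.1 CPM in uninjected triple mutants, against 22.6, 10.2 and 18.03 CPM in uninjected wild type, and at 54.9, 49.2 and 63.9 CPM in zymosan-injected triple mutants, against 12.06, 13.2 and 10.4 CPM in zymosan-injected wild type. All triple mutant libraries lay above all wild type libraries (1.53 ± 0.20, adjusted p = 9e-06 uninjected; 2.24 ± 0.20, adjusted p = 4.39e-08 with zymosan). Within each condition, groups did not overlap in either direction for 29.0% of all tested genes uninjected and 27.0% with zymosan. The low-abundance tnnt2c fell in uninjected triple mutants (-0.95 ± 0.25, adjusted p = 0.0164), and the fast gene tnnt3a fell too (-0.58 ± 0.14, adjusted p = 0.00686), but neither passed without the second triple mutant library, tnnt2c also not without the first triple mutant or second wild type library and tnnt3a not without the third wild type library (highest adjusted p = 0.109 and 0.0731). The most abundant troponin T, tnnt3b, did not pass (-0.26 ± 0.13, adjusted p = 0.245).

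**Figure D2:**
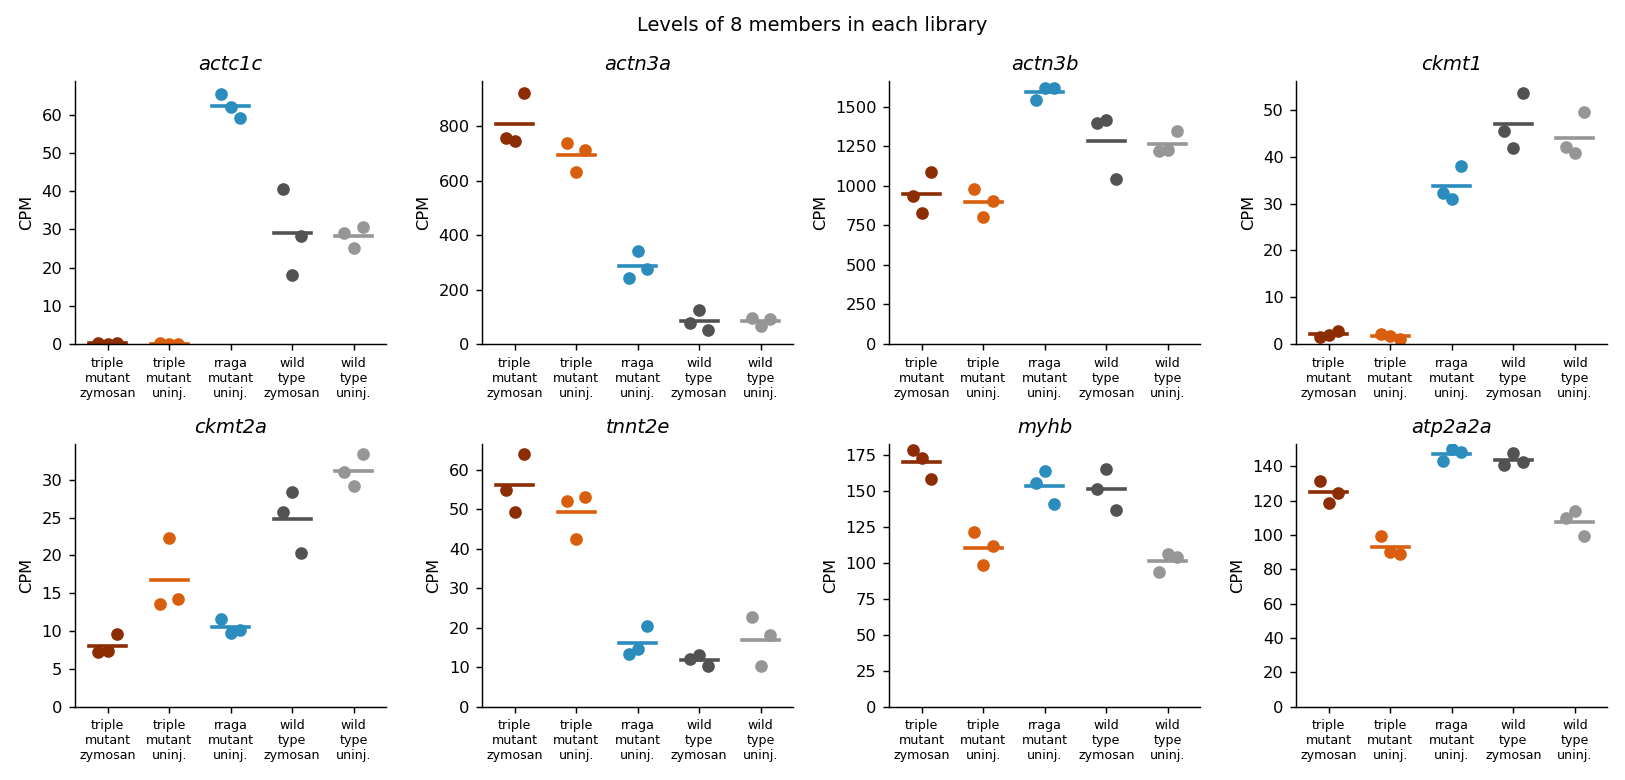
Level in CPM (y axes, from 0) of actc1c, actn3a, actn3b, ckmt1, ckmt2a, tnnt2e, myhb and the atp2a2a gene on chromosome 21 in the 15 libraries; points are libraries, bars are group means of 3, and the groups run from zymosan-injected triple mutants at the left to uninjected wild type at the right. The triple mutant points of actc1c and ckmt1 lie near 0 and those of actn3a and tnnt2e lie above all wild type points, while myhb and atp2a2a separate zymosan-injected from uninjected larvae of either genotype.

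Genes next to these members moved as well. Of the 13 other tested genes that start within 0.5 Mb of ckmt1 on chromosome 25, 6 (46.2%) were called in uninjected larvae and 5 were over 4-fold lower in triple mutants, against 2.14% of all tested genes over 4-fold changed in either direction. In zymosan-injected larvae 9 of these 13 were called and 8 were over 4-fold lower. Of all tested genes 9.77% were called in uninjected and 11.9% in zymosan-injected larvae. Around tnnt2e on chromosome 4, 7 of 14 neighbours were called in uninjected larvae and 4 were over 4-fold higher. Around actn3a on chromosome 21, 5 of 22 neighbours (22.7%) were called, 1 over 4-fold higher and 1 over 4-fold lower, and around pvalb7 4 of 5. Around actc1c 1 of 20 neighbours (5.0%) was called, and it was over 4-fold lower. Whether the neighbours' changes and those of the muscle genes share an origin was not tested.

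**Figure D3:**
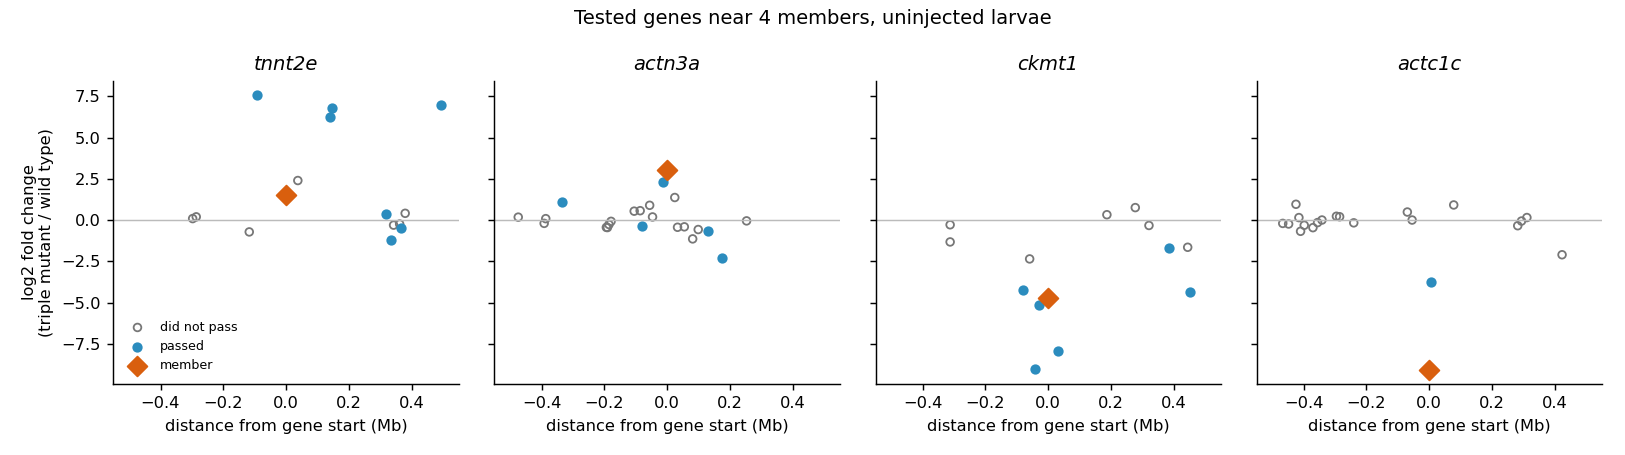
log2 fold change in uninjected larvae, triple mutant over wild type (y axis), of the tested genes that start within 0.5 Mb of tnnt2e, actn3a, ckmt1 and actc1c (distance from the start of that gene in Mb, x axes). Filled circles passed the test, open circles did not, and the diamond is the named gene; 4 neighbours of tnnt2e are over 4-fold higher and 5 neighbours of ckmt1 over 4-fold lower.

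Of the 26 lower genes 11 were fast, among them genes of the thin and thick filaments. The fast light chain mylz3 was at 10794, 7870.0 and 9281 CPM in uninjected triple mutants, against 12662, 13049 and 15173 CPM in uninjected wild type (-0.55 ± 0.15, adjusted p = 0.0206). The skeletal actin acta1b was at 1902, 1485 and 1543 CPM in uninjected triple mutants, against 2068, 2306 and 2917 CPM in uninjected wild type (-0.56 ± 0.16, adjusted p = 0.0242). Neither passed without the second or the third triple mutant library or the third wild type library, nor acta1b without the second wild type library (highest adjusted p = 0.115 for mylz3 and 0.179 for acta1b). The fast myosin-binding proteins mybpc2a (-0.68 ± 0.17, adjusted p = 0.0122), mybpha (-0.62 ± 0.19, adjusted p = 0.0407) and mybphb (-0.41 ± 0.12, adjusted p = 0.0311) and the parvalbumin pvalb4 (-0.36 ± 0.10, adjusted p = 0.0277) also fell. Of the 6 fits that each leave out a library, mybpc2a passed in 3, mybpha and mybphb in 2 each and pvalb4 in 1 (highest adjusted p = 0.102, 0.218, 0.154 and 0.171 in that order). With the replicate number fitted as a block, mybpha and mybphb did not pass either.

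Fast troponin I is encoded by tnni2b.1 and tnni2b.2 on chromosome 7 and by a tandem array on chromosome 25. Its copy tnni2a.1 was at 37.2, 32.0 and 42.4 CPM in uninjected triple mutants, against 57.4, 59.0 and 51.8 CPM in uninjected wild type (-0.59 ± 0.12, adjusted p = 0.0015). Its copy tnni2a.2 was at 17.97, 18.2 and 17.0 CPM in uninjected triple mutants, against 26.3, 27.9 and 23.9 CPM in uninjected wild type (-0.56 ± 0.11, adjusted p = 0.002). Both fell with no overlap, found in 29.0% of all tested genes in either direction, and passed whichever library was left out. They are minor copies, since tnni2a.4 averaged 2847 ± 411 CPM in uninjected triple mutants and 3601 ± 338 CPM in uninjected wild type (SD, n = 3 each). On chromosome 7 neither tnni2b.1 (-0.18 ± 0.10, adjusted p = 0.335) nor tnni2b.2 (-0.06 ± 0.11, adjusted p = 0.799) passed in uninjected larvae. The level of tnni2b.2 was 335 ± 39.2 CPM in uninjected triple mutants and 350 ± 9.20 CPM in uninjected wild type (SD, n = 3 each).

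Among the most abundant fast genes, mylz3 passed the test in uninjected larvae, and actc1b, pvalb1 (-0.13 ± 0.13, adjusted p = 0.627), atp2a1 (-0.19 ± 0.13, adjusted p = 0.443), ckmb and tnnt3b did not. The count of fast genes moved with most libraries left out. Without the second uninjected triple mutant library 2 fast genes were lower, in place of 11, and 15 muscle genes were called in all, in place of 31. Without the third triple mutant library 6 fast genes were lower, and without the first, the second or the third wild type library 7, 5 and 5. Leaving out each of the 6 libraries in turn, 4 of the 5 higher genes (actn3a, myh14, myl6 and tnnt2e) and 10 of the 26 lower genes passed every time. Those 10 were actc1c, ckmt1, ckmt2a, pvalb7, pvalb8, tnni2a.1, tnni2a.2, tpm2, tpm3 and ryr1a.

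When library sizes were set by muscle genes alone, an alternative chosen after seeing that the muscle share differed between libraries, the median of all genes lay at 0.245 (log2) in uninjected and 0.18 in zymosan-injected larvae. Under it 11 muscle genes were lower and 7 higher in uninjected triple mutants, 9 lower and 9 higher in zymosan-injected triple mutants, and 13 lower and 10 higher in rraga mutants. The sizes came from the fast, slow and cardiac classes and from the lists of coupling and of Z disc and fibre genes given at the end. This scaling fixes the summed counts of those genes by construction, so the more even split says nothing of the balance of directions. Abundant genes are themselves part of that sum. In uninjected triple mutants the standard error of mylz3 was 0.05 under it, against 0.15 with TMM sizes. Its p-values are thus not comparable with those given above. Of the fast genes 7 were lower and 2 higher in uninjected triple mutants. Relative to the summed muscle RNA, mylz3 (-0.32 ± 0.05, adjusted p = 6.27e-05), ckma (-0.29 ± 0.06, adjusted p = 0.00656), acta1b (-0.32 ± 0.09, adjusted p = 0.0222) and actn3b (-0.26 ± 0.05, adjusted p = 0.00337) stayed lower. In uninjected triple mutants no slow or cardiac gene was called lower under it, and the slow troponin I tnni1c (0.69 ± 0.18, adjusted p = 0.0203) and the cardiac myosin myh7 (0.65 ± 0.13, adjusted p = 0.00212) were higher. Calls cannot be compared between classes under this scaling, since the standard errors of genes that make up much of the sum shrink. The fast mybphb was called lower at -0.18, and the slow myl13 at -0.21 was not (adjusted p = 0.0542). The slow median in uninjected triple mutants was 0.10 under this scaling. Then pvalb1, ckmb, atp2a1, tnnt2d, mybpc3 and atp2a2a on chromosome 21, none of them called, lay between 0.02 and 0.10, in place of -0.22 to -0.13. In zymosan-injected triple mutants the slow and cardiac medians lay at 0.05 and 0.00334 under it.

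Of the slow genes, the slow-muscle ryanodine receptor ryr1a was at 12.23, 13.7 and 14.9 CPM in uninjected triple mutants, against 18.8, 20.4 and 22.7 CPM in uninjected wild type (-0.60 ± 0.14, adjusted p = 0.0062). The tropomyosin tpm3 was at 435, 368 and 405 CPM in uninjected triple mutants, against 540.0, 543 and 548 CPM in uninjected wild type (-0.43 ± 0.10, adjusted p = 0.00365). Neither gene's groups overlapped, nor did those of 29.0% of all tested genes. The slow light chain myl13 fell (-0.44 ± 0.12, adjusted p = 0.0164), though not without the second triple mutant or the second or the third wild type library (highest adjusted p = 0.108). The slow genes myl10 (-0.31 ± 0.12, adjusted p = 0.104), the slow and cardiac troponin C tnnc1b (-0.39 ± 0.13, adjusted p = 0.0525), mybpc1 (0.03 ± 0.13, adjusted p = 0.937) and myh7bb (0.12 ± 0.13, adjusted p = 0.686) did not pass. The tropomyosin tpm2, of the other class, was at 345 ± 31.0 CPM in uninjected triple mutants and 491 ± 9.46 CPM in uninjected wild type (SD, n = 3 each; -0.51 ± 0.11, adjusted p = 0.00213).

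In the cardiac class the beta myosin heavy chain myh7 was at 118, 102 and 104 CPM in uninjected triple mutants, against 75.8, 85.4 and 81.2 CPM in uninjected wild type (0.42 ± 0.10, adjusted p = 0.00818). The actin actc1a on chromosome 20 was at 328, 275 and 309 CPM in uninjected triple mutants, against 397, 397 and 442 CPM in uninjected wild type (-0.44 ± 0.11, adjusted p = 0.0126), and without the second triple mutant library or the third wild type library it did not pass (highest adjusted p = 0.0798). One cardiac gene was thus higher and 1 lower, and myh7 did not pass without the first wild type library (adjusted p = 0.0557). The other abundant cardiac genes did not pass: tnnt2d gave -0.19 ± 0.12, the SERCA pump atp2a2a on chromosome 21 gave -0.22 ± 0.09, mybpc3 gave -0.14 ± 0.10 and the light chain myl4 gave -0.27 ± 0.14 (adjusted p = 0.382, 0.133, 0.49 and 0.241 in that order).

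Some members work outside striated muscle. The parvalbumin pvalb7, a marker of cerebellar Purkinje cells in zebrafish, was at 17.8, 14.99 and 15.9 CPM in uninjected triple mutants, against 46.9, 43.2 and 41.6 CPM in uninjected wild type (-1.44 ± 0.24, adjusted p = 0.000194). The light chain myl6 of non-muscle and smooth muscle myosin was at 37.1, 18.8 and 28.8 CPM in uninjected triple mutants, against 11.9, 13.9 and 13.4 CPM in uninjected wild type (1.11 ± 0.20, adjusted p = 0.000662). The non-muscle myosin myh14 was at 71.7, 81.1 and 75.4 CPM in uninjected triple mutants, against 38.7, 41.0 and 38.5 CPM in uninjected wild type (0.95 ± 0.16, adjusted p = 0.00017). The first fell and the other 2 rose, with no overlap in any of the 3, nor in 29.0% of all tested genes. Smooth muscle genes acta2 (-0.17 ± 0.14, adjusted p = 0.523) and myh11a (-0.45 ± 0.18, adjusted p = 0.124) did not pass.

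**Figure D4:**
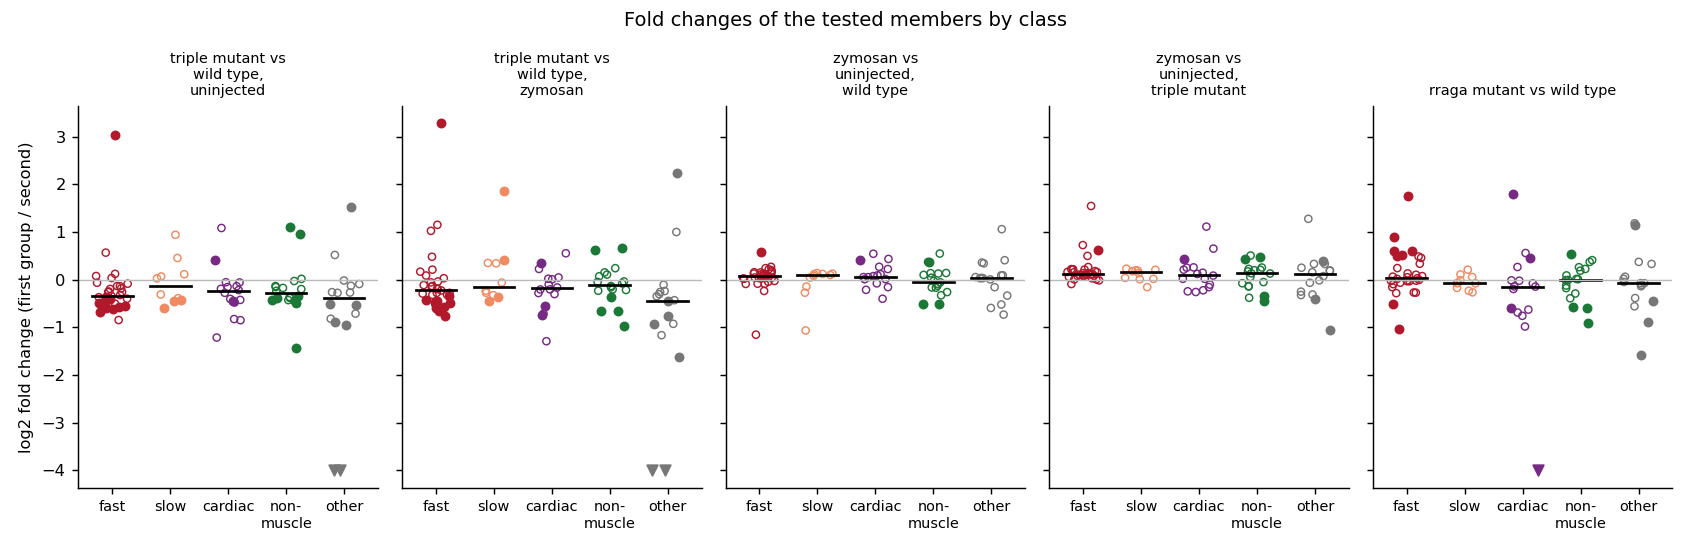
log2 fold change (y axis) of the 91 tested muscle genes by class in the 5 comparisons, the first named group over the second; filled points passed the test, open points did not, triangles mark values beyond -4 drawn at the edge, and the bar is the class median. In the comparisons of triple mutant with wild type the fast median lies at -0.34 and -0.23, and in those of zymosan-injected with uninjected larvae at 0.07 and 0.12.

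In zymosan-injected larvae, triple mutants had 23 muscle genes lower and 7 higher of 91, 33.0% in all, against 11.9% of all genes called, 6.66% lower and 5.21% higher. In the fast class 9 of 31 were lower and 1 higher (median -0.23), in the slow class 2 of 10 were lower and 2 higher (median -0.14), and in the cardiac class 2 of 16 were lower and 1 higher (median -0.18). This comparison shares no library with that of uninjected larvae. The 5 genes higher in uninjected triple mutants (actn3a, myh14, myh7, myl6 and tnnt2e) were all among the 7 higher here, and 18 genes were lower in both, 69.2% of the 26 and 78.3% of the 23. Both comparisons set the same mutant line against wild type, and how many calls over all genes were shared was not counted. Of the shared genes actn3a, tnnt2e, actc1c, ckmt1 and ckmt2a passed in both whichever library was left out.

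Most of the modest differences again did not pass in every fit that left out a library. Such a fit has fewer libraries in a group, so calls near the threshold can be lost with little change in size. For example, tpm3 passed in 2 of the 6 fits, with log2 fold changes of -0.425 to -0.317. Without the first zymosan-injected wild type library 1 fast gene was lower and 11 muscle genes were called in all, without the second 17 were called in all, and without the third 15 fast genes were lower and 40 muscle genes were called. Without the first triple mutant library 17 were called, and without the second 16. Passing whichever library was left out were actn3a, tnnt2e and myh7ba among the higher and actc1c, ckmt1, ckmt2a, actn1 and pvalb5 among the lower. The slow-type myosin myh7ba (chromosome 11, 25181886 to 25213689 on GRCz11) was at 5.28, 4.74 and 3.29 CPM in zymosan-injected triple mutants, against 0.389, 1.38 and 1.83 CPM in zymosan-injected wild type (1.85 ± 0.43, adjusted p = 0.00507). Of 29 tested genes that start within 0.5 Mb of it, 12 (41.4%) were called in this comparison and 4 were over 4-fold lower, against 11.9% of all tested genes called and 2.22% over 4-fold changed. The targeted genes tfeb and tfe3b are on chromosome 11 too, and what this adds to these differences was not tested. In uninjected larvae myh7ba was at 2.90, 7.19 and 4.66 CPM in triple mutants, against 2.88, 2.94 and 1.83 CPM in wild type, and was not called. The non-muscle alpha-actinin actn1 was at 30.9, 24.6 and 26.5 CPM in zymosan-injected triple mutants, against 52.4, 38.0 and 39.3 CPM in zymosan-injected wild type (-0.66 ± 0.13, adjusted p = 0.00141). For mylz3, which fell by the test (-0.57 ± 0.15, adjusted p = 0.0144), the levels were 9488, 8759 and 11357 CPM in zymosan-injected triple mutants, against 17125, 15766 and 10942 CPM in zymosan-injected wild type. There the third wild type library lay within the triple mutant range, and the difference did not pass without the first or second wild type library or either of the first 2 triple mutant libraries (highest adjusted p = 0.112). For tnnt2c (-0.76, adjusted p = 0.0491) and myl6 (0.61, adjusted p = 0.0451) the calls with zymosan passed in 1 and 2 of the 6 fits that leave out a library (highest adjusted p = 0.273 and 0.176). The tnnt2c call did not pass with RLE factors (adjusted p = 0.0522).

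**Figure D5:**
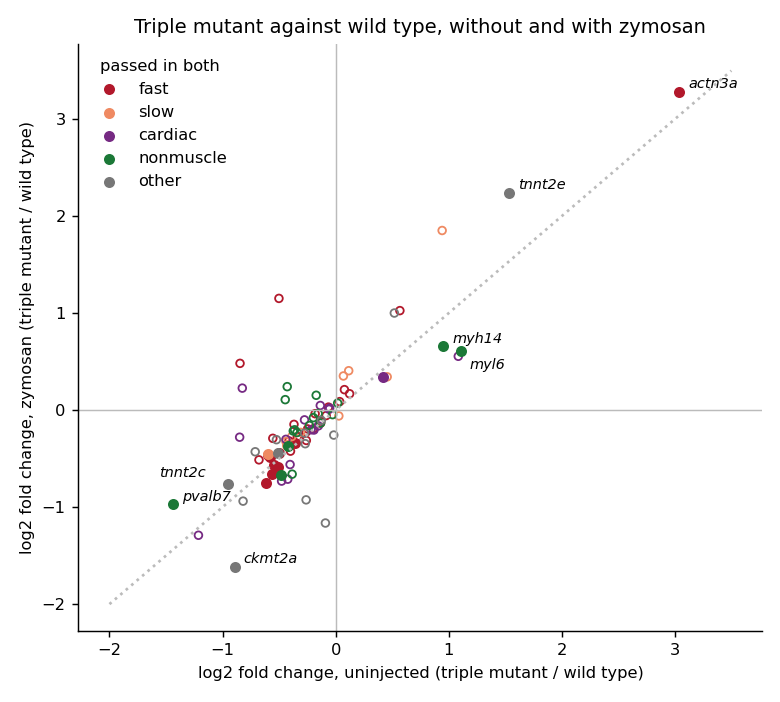
log2 fold change of triple mutant over wild type in uninjected (x axis) and zymosan-injected larvae (y axis) for the tested muscle genes; filled points passed in both comparisons, the dotted line marks equal values, and actc1c and ckmt1 lie beyond the axes. The named genes actn3a, tnnt2e, myh14 and myl6 are higher and pvalb7, tnnt2c and ckmt2a lower in both, of which the tnnt2c and myl6 calls with zymosan pass in 1 and 2 of the 6 fits that leave out a library. The pvalb7 and myh14 calls with zymosan pass in 5 of the 6 fits each, and the tnnt2c call in uninjected larvae in 3.

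Zymosan injection moved few muscle genes. In triple mutants 5 were higher and 4 lower of 91, 9.89% in all, against 12.8% of all genes called, 7.64% higher and 5.18% lower. In wild type 3 were higher and 2 lower, 5.49% in all, against 9.9% of all genes called, 6.07% higher and 3.83% lower. The members' shares were thus no larger than those of all genes. Without the third zymosan-injected wild type library 10 muscle genes were called in wild type. Myeloid cell markers fell with the injection, summing to 5.35 to 8.95 CPM with zymosan and 14.8 to 19.7 CPM uninjected in triple mutants, and to 4.28 to 5.99 CPM with zymosan and 13.3 to 14.6 CPM uninjected in wild type, with 2 of 4 tested markers lower in each. Their part in the results was not tested. Class medians lay between -0.04 and 0.16 in the 2 genotypes. The 3 genes higher in wild type (atp2a2a on chromosome 21, myhb and myh9b) were among the 5 higher in triple mutants, and the 2 lower in wild type (myh9a and pvalb8) among the 4 lower. The sharing of calls over all genes was not counted here either.

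The fast myosin heavy chain myhb was at 179, 173 and 159 CPM in zymosan-injected and 121, 98.5 and 112 CPM in uninjected larvae of the triple mutant line (0.62 ± 0.10, adjusted p = 0.000128). In wild type it was at 151, 165 and 137 CPM with zymosan, against 93.9, 106 and 104 CPM uninjected (0.58 ± 0.10, adjusted p = 0.000426). In each genotype the injected libraries lay above the uninjected ones. Of all tested genes 31.7% in triple mutants and 25.6% in wild type had no overlap either way.

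The SERCA pump of heart and slow muscle, atp2a2a (chromosome 21, 17051478 to 17108649 on GRCz11), showed the same order. It was at 131, 119 and 125 CPM in zymosan-injected and 99.5, 89.9 and 88.9 CPM in uninjected larvae of the triple mutant line (0.43 ± 0.09, adjusted p = 0.00145). In wild type it was at 141, 148 and 143 CPM with zymosan, against 109.9, 114 and 99.5 CPM uninjected (0.41 ± 0.09, adjusted p = 0.00261). Both genes passed whichever library was left out, in either genotype. With sizes from muscle genes alone atp2a2a did not pass (0.32, adjusted p = 0.152 in triple mutants and 0.36, adjusted p = 0.141 in wild type). The muscle genes still called were myhb and pvalb8 in both genotypes and ckmt2a in triple mutants. The gene of the same name on chromosome 8 averaged 40.9 ± 2.201 CPM with zymosan and 38.6 ± 6.78 CPM uninjected in triple mutants (SD, n = 3 each), and was not called.

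Parvalbumin pvalb8, found in sensory hair cells of zebrafish, was at 77.5, 72.7 and 63.8 CPM in zymosan-injected and 97.9, 92.0 and 102 CPM in uninjected larvae of the triple mutant line (-0.45 ± 0.10, adjusted p = 0.00278). In wild type it was at 93.8, 86.9 and 96.4 CPM with zymosan, against 140.2, 136 and 116 CPM uninjected (-0.50 ± 0.10, adjusted p = 0.0013). It fell with no overlap in both, found either way in 31.7% of all tested genes in triple mutants and 25.6% in wild type. The 2 non-muscle myosin IIA genes moved in opposite directions: myh9b rose (0.48 ± 0.11, adjusted p = 0.0028 in triple mutants; 0.37 ± 0.10, adjusted p = 0.0249 in wild type) and myh9a fell (-0.35 ± 0.11, adjusted p = 0.0467 in triple mutants; -0.50 ± 0.11, adjusted p = 0.00446 in wild type). Of these, the rise of myh9b in wild type and the fall of myh9a in triple mutants were lost when single libraries were left out (highest adjusted p = 0.173 and 0.13).

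Called in triple mutants and not in wild type were the regulatory light chain myl9b (0.43 ± 0.12, adjusted p = 0.0186) and the troponin I tnni4b.2 (0.38 ± 0.12, adjusted p = 0.0394), both higher, and ckmt2a (-1.06 ± 0.18, adjusted p = 0.000302) and the myosin methyltransferase smyd1b (-0.40 ± 0.10, adjusted p = 0.0126), both lower. Of these 4, ckmt2a passed whichever library was left out, and the others did not (highest adjusted p = 0.0911 for myl9b, 0.225 for tnni4b.2 and 0.0806 for smyd1b). The difference between the zymosan responses of triple mutants and wild type was tested directly. It passed for 0 of 91 muscle genes by edgeR and for 0 by DESeq2, against 27 of all 19006 genes (0.142%, of which 0.0316% higher and 0.11% lower) by edgeR, and 4 of the 91 muscle genes had an unadjusted p under 0.05, against 1093 of the 19006 genes.

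In rraga mutants 10 muscle genes were higher and 10 lower of 91, against 14.0% of all genes called, 7.58% higher and 6.41% lower. In the fast class 6 of 31 were higher and 2 lower (median 0.03), in the slow class no gene of 10 was called (median -0.07), and in the cardiac class 2 of 16 were higher and 2 lower (median -0.14). The slow light chain myl10, for example, did not pass (-0.26 ± 0.12, adjusted p = 0.141). The uninjected wild type libraries serve both this comparison and that of uninjected triple mutants, so the values are given side by side and their likeness is not a result. All 10 higher and 7 of the 10 lower genes passed whichever library was left out.

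Some fast genes of calcium release and the thick filament rose. The fast-muscle ryanodine receptor ryr1b was at 287, 280.5 and 302 CPM in rraga mutants, against 206, 194 and 203 CPM in uninjected wild type (0.53 ± 0.09, adjusted p = 0.00019), and ryr3 at 796, 822 and 865 CPM, against 535, 548 and 675 CPM (0.50 ± 0.11, adjusted p = 0.00366). The fast myosin-binding protein C mybpc2a was at 25.8, 26.3 and 21.3 CPM in rraga mutants, against 15.5, 14.3 and 9.15 CPM in uninjected wild type (0.91 ± 0.17, adjusted p = 0.000584). The groups did not overlap in any of the 3 genes, nor in 31.9% of all tested genes. The myosin myhb (0.60 ± 0.10, adjusted p = 0.000249), tnni2a.2 (0.60 ± 0.11, adjusted p = 0.000707) and atp2a2a on chromosome 21 (0.45 ± 0.09, adjusted p = 0.00101) rose too, the last not with sizes from muscle genes alone (0.38, adjusted p = 0.08). For mybpc2a and tnni2a.2 the triple mutants had been lower than wild type, at -0.68 ± 0.17 and -0.56 ± 0.11. Their more abundant copies mybpc2b (0.24 ± 0.13, adjusted p = 0.223) and tnni2a.4 (-0.03 ± 0.12, adjusted p = 0.92) did not pass in rraga mutants. Nor did the abundant thick filament genes mylz3, mylpfb, myl1 and mybphb, at -0.09 to -0.02.

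The actins split by copy. Skeletal actin acta1a was at 239, 247 and 194 CPM in rraga mutants, against 395, 469 and 525 CPM in uninjected wild type (-1.03 ± 0.16, adjusted p = 7.86e-05), and did not pass in uninjected triple mutants (-0.37 ± 0.16, adjusted p = 0.159). The abundant actc1a on chromosome 20 was at 272, 293 and 252 CPM in rraga mutants, against 397, 397 and 442 CPM in uninjected wild type (-0.60 ± 0.11, adjusted p = 0.000807). Both of these fell. The scarce gene of that name on chromosome 19 rose, at 10.02, 14.1 and 8.47 CPM in rraga mutants, against 2.12, 2.94 and 4.44 CPM in uninjected wild type (1.79 ± 0.34, adjusted p = 0.000802), and actc1c rose as well, at 65.5, 62.0 and 59.0 CPM in rraga mutants, against 29.0, 25.04 and 30.5 CPM in uninjected wild type (1.14 ± 0.20, adjusted p = 0.000404). The main actin actc1b was at 36428 ± 996 CPM in rraga mutants and 35996 ± 2848 CPM in uninjected wild type (SD, n = 3 each; 0.02 ± 0.14, adjusted p = 0.96).

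The alpha-actinin actn3a was higher in rraga mutants at 244, 341 and 276 CPM, against the uninjected wild type values above (1.76 ± 0.21, adjusted p = 3.24e-06). At ckmt2a the rraga mutants had 11.6, 9.71 and 10.1 CPM, below every uninjected wild type library (-1.57 ± 0.18, adjusted p = 1.83e-06), whereas ckmt1 did not pass (-0.38 ± 0.15, adjusted p = 0.0985). The parvalbumins that fell were pvalb5 (-0.57 ± 0.12), pvalb7 (-0.90 ± 0.23) and pvalb8 (-0.59 ± 0.10; adjusted p = 0.00226, 0.0104 and 0.000202 in that order), and smyd1b fell too (-0.44 ± 0.11, adjusted p = 0.00599). Of 6 neuron markers 3 were lower in rraga mutants, with sums of 1827 to 1924 CPM in rraga mutants and 2152 to 2312 CPM in uninjected wild type. Their part in the fall of pvalb7 was not tested. Myeloid markers summed to 30.7 to 32.1 CPM in rraga mutants and 13.3 to 14.6 CPM in uninjected wild type (2 of 4 higher). Lens markers summed to 867 to 980.4 CPM in rraga mutants and 1016 to 1224 CPM in uninjected wild type (1 of 4 higher and 2 lower). Their part in these results was not tested either. The falls of tnnt3a (-0.50 ± 0.14) and tnnt2c (-0.89 ± 0.25) were each lost without 1 rraga and 1 wild type library (highest adjusted p = 0.117 and 0.114). The atrial myosin heavy chain myh6 had 0 counts in rraga mutants and 18 in uninjected wild type, a difference of at least 6.17-fold (lower) if 3 counts are taken as the limit of the whole group, and its call was lost without any of 3 single libraries (highest adjusted p = 0.0687).

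Genes that work with these members, taken from lists made with earlier results of these data known, were counted in the same fit. Of 28 tested genes of excitation-contraction coupling, 8 were lower and 1 higher in uninjected triple mutants (median -0.20), 4 lower and 0 higher in zymosan-injected triple mutants (median -0.21), and 3 lower and 4 higher in rraga mutants (median 0.12). Over all genes 5.84% were lower and 3.93% higher in uninjected triple mutants, 6.66% and 5.21% in zymosan-injected triple mutants, and 6.41% and 7.58% in rraga mutants. The calcium store protein calsequestrin casq2 was at 136, 119 and 124 CPM in uninjected triple mutants, against 180.1, 207 and 249 CPM in uninjected wild type (-0.75 ± 0.14, adjusted p = 0.000704). Its groups did not overlap, nor did those of 29.0% of all tested genes. The calcium channel subunit cacng6a fell in both conditions (-0.53 ± 0.17, adjusted p = 0.0429 uninjected; -0.70 ± 0.17, adjusted p = 0.00773 with zymosan), the channel adaptor stac3 with zymosan (-0.46 ± 0.11, adjusted p = 0.00658), and the junctophilin jph2, which holds the store to the membrane, in uninjected triple mutants (-0.52 ± 0.16, adjusted p = 0.0459) and rraga mutants (-0.56 ± 0.16, adjusted p = 0.0227). With sizes from muscle genes alone cacng6a did not pass in either condition (adjusted p = 0.32 uninjected and 0.149 with zymosan). Under that setting jph2 in uninjected triple mutants (adjusted p = 0.16) and stac3 with zymosan (adjusted p = 0.198) did not pass either. The chloride channel clcn1a rose in rraga mutants (1.00 ± 0.24, adjusted p = 0.00678).

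Another list held 71 tested genes of the Z disc, M band, filament assembly and fibre metabolism, with the myosins named otherwise. Of these, 15 were lower and 5 higher in uninjected triple mutants (median -0.17), and 12 lower and 7 higher in zymosan-injected triple mutants (median -0.14). In rraga mutants 4 were lower and 15 higher (median 0.12), beside the same shares of all genes. Myotilin, the Z disc protein encoded by myot, was at 11.8, 16.4 and 14.7 CPM in uninjected triple mutants and 4.94, 6.62 and 5.10 CPM in rraga mutants, against 33.5, 34.2 and 35.5 CPM in uninjected wild type. It fell in both (-1.26 ± 0.18, adjusted p = 3.08e-05 in triple mutants; -2.63 ± 0.20, adjusted p = 4.2e-09 in rraga mutants). The thin filament cap tmod4 was at 235, 182 and 217 CPM in uninjected triple mutants, against 369, 374 and 432 CPM in uninjected wild type (-0.89 ± 0.13, adjusted p = 3.68e-05).

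The muscle subunit of cytochrome c oxidase, cox6a2, was at 1.31, 1.56 and 2.40 CPM in uninjected triple mutants, against 7.76, 5.05 and 6.71 CPM in uninjected wild type (-1.90 ± 0.29, adjusted p = 8.25e-05). Muscle glycogen phosphorylase, pygma, was at 217, 186 and 209 CPM in uninjected triple mutants and 152, 200.03 and 178 CPM in rraga mutants, against 96.8, 103 and 107 CPM in uninjected wild type (0.99 ± 0.11, adjusted p = 7.8e-07 in triple mutants; 0.79 ± 0.11, adjusted p = 2.48e-05 in rraga mutants). The oxidase subunit thus fell in triple mutants and the phosphorylase rose in both mutants. The M band gene myom1b was at 195, 193 and 189 CPM in uninjected triple mutants and 515, 533 and 556 CPM in rraga mutants, against 309, 313 and 305 CPM in uninjected wild type. It fell in triple mutants (-0.68 ± 0.09, adjusted p = 1.9e-05) and rose in rraga mutants (0.79 ± 0.09, adjusted p = 2.99e-06). The myosin chaperone hsp90aa1.1 rose in uninjected triple mutants, at 226, 178 and 209 CPM, against 68.8, 75.0 and 67.9 CPM in uninjected wild type (1.53 ± 0.22, adjusted p = 4.34e-05).

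With zymosan a gene of this list that rose was tcap, the Z disc protein telethonin that caps titin. In triple mutants it was at 69.9, 71.6 and 78.2 CPM with zymosan, against 11.8, 8.02 and 6.98 CPM uninjected, and in wild type at 63.3, 57.1 and 78.1 CPM with zymosan, against 8.01, 7.39 and 5.84 CPM uninjected. The injected libraries lay several times above the uninjected ones in both genotypes (3.04 ± 0.16, adjusted p = 6.23e-12 in triple mutants; 3.21 ± 0.17, adjusted p = 9.33e-12 in wild type). Of the 71 genes of that list, 4 were higher and 8 lower with zymosan in triple mutants, and 2 higher and 6 lower in wild type, where 12.8% and 9.9% of all genes were called in either direction. The Z disc gene synpo2lb fell in both (-1.01 ± 0.15, adjusted p = 3.31e-05 in triple mutants; -0.68 ± 0.15, adjusted p = 0.00377 in wild type), and hsp90aa1.1 fell in triple mutants (-1.60 ± 0.22, adjusted p = 2.17e-05). The difference between the zymosan responses of the 2 genotypes passed for 0 of these 71 genes, against 27 of all 19006 genes.

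Of 21 tested genes for muscle determination, heart factors and the endplate receptor, 1 was higher and 2 lower with zymosan in triple mutants and 1 higher and 3 lower in wild type, beside the 12.8% and 9.9% of all genes called. The gamma subunit of the fetal acetylcholine receptor, chrng, was at 3.12, 2.03 and 2.43 CPM with zymosan, against 0.622, 0.891 and 0.751 CPM uninjected, in triple mutants (1.72 ± 0.41, adjusted p = 0.00611). In wild type it was at 3.66, 5.72 and 5.60 CPM with zymosan, against 1.09, 1.43 and 2.00 CPM uninjected (1.74 ± 0.38, adjusted p = 0.00408). It rose in both, while the homeobox genes six1b (-0.62 ± 0.13, adjusted p = 0.00148 in triple mutants; -0.89 ± 0.13, adjusted p = 3.28e-05 in wild type) and six1a (-1.07 ± 0.23, adjusted p = 0.00289 in triple mutants; -0.78 ± 0.23, adjusted p = 0.031 in wild type) fell in both. Between genotypes, 2 of the 21 genes of this list were lower and 0 higher in uninjected triple mutants, beside 5.84% lower and 3.93% higher of all genes. These were the adult receptor subunit chrne (-1.25 ± 0.28, adjusted p = 0.00426) and the myoblast fusion gene mymk (-1.14 ± 0.31, adjusted p = 0.0191). In zymosan-injected triple mutants mymk (-1.005 ± 0.32, adjusted p = 0.043) and the differentiation factor myog (-0.98 ± 0.30, adjusted p = 0.0337) were lower and 0 higher, beside 6.66% and 5.21% of all genes. In rraga mutants 2 were lower, tbx5a and myod1, and 0 higher, beside 6.41% and 7.58% of all genes. The tbx5a call (-2.14, adjusted p = 0.0361) was lost with sizes from muscle genes alone (adjusted p = 0.0544). With sizes from muscle genes alone mymk did not pass (adjusted p = 0.115 uninjected and 0.176 with zymosan), nor did myog with zymosan (adjusted p = 0.119). The fall of six1a with zymosan in wild type was also lost under that setting (adjusted p = 0.0763).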

How the data were processed

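RNA was extracted with the Takara NucleoSpin RNA Plus kit and libraries were made with the NEBNext Ultra II kit, per the labels' protocols. Groups and replicate numbers came from the labels. The authors deposited 3 tables of 6 libraries each with raw counts per gene, and beside them scaled counts (a signal with no stated unit) and FPKM values, neither of which was used. Per the submitters' processing notes, the build was GRCz11 and the tools were HISAT2 2.0.5, StringTie 1.3.3b and featureCounts 1.5.0; strand settings and the counting of reads that match several places are not given in the sources used here. The tables were joined by gene identifier, and 22086 of the 24609 genes were in all 3 (95 of the 96 muscle genes). Each table lists genes with at least 2 counts in it, so a gene missing from a table was taken as 0. Counts of uninjected wild type occur in 2 tables and were identical for the 22631 genes found in both. No pair of libraries within a group agreed within sampling noise; pairs across groups were not compared.

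Counts of all 15 libraries were fitted with edgeR 4.0.16 in R 4.3.3 (filterByExpr, TMM sizes, quasi-likelihood test, 1 mean per group) over 19006 genes, with Benjamini-Hochberg adjustment over all of them. The script was tested on simulated data. Levels per kb used the deposited gene lengths. DESeq2 1.42.0, other size factors, no filter, fits on the compared groups alone, a replicate block, sizes without mitochondrial or without muscle genes, and each library left out were the alternatives, with sizes from muscle genes alone added later. Counting error alone is covered by the interval and the floor of 3 counts.

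The muscle genes, their classes and the pathway lists were chosen with earlier results of these data known. Named were, per comparison, the called muscle genes with the largest changes (at most 12 in each direction), the 6 most abundant of the fast, slow and cardiac classes, the targeted genes, and at most 5 called genes of each pathway list. Named outside this rule, after their values were seen, were the smooth muscle genes, further copies of named genes, cell type markers and genes called only in another comparison.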

Additional observations from a re-analysis of the deposited data

How the results depend on the processing

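None of the 133 called results for named genes changed direction under the alternatives run. Of 86 named values that were not called, 20 changed sign with sizes from muscle genes alone (none beyond 0.134 in size), 22 when a library was left out and 1 under the replicate block. Of 18 class medians, 6 changed sign with sizes from muscle genes alone, 5 when a library was left out, and 1 each with no filter and under the block. The number of muscle genes called, leaving out each library in turn, ranged from 15 to 29 for uninjected triple mutants against wild type, from 11 to 40 for zymosan-injected triple mutants against wild type, from 4 to 10 for zymosan in wild type, from 6 to 8 for zymosan in triple mutants, and from 18 to 20 for rraga mutants; it was 0 throughout for the difference between the zymosan responses. Over all genes the same ranges were 1250 to 1637, 1540 to 3168, 1299 to 2202, 1686 to 2020, 1844 to 2653 and, for the difference between responses, 16 to 50. That difference called 54 genes by DESeq2 and 77 with no filter, in place of 27; the cause was not tested. With sizes from muscle genes alone, chosen after seeing the data, the 31, 30, 5 and 9 muscle genes called in the first 4 comparisons became 18, 18, 2 and 3, and the 20 of rraga mutants 23. This setting moved the median of all genes to 0.245, 0.18, -0.053, -0.109 and -0.0651 (log2) in these comparisons. Of 133 called results for named genes, 50 did not pass under it, 11 did not pass in fits of the compared groups alone, 3 with RLE factors, 3 with no filter and 1 by DESeq2. Sizes without muscle genes or without mitochondrial genes changed none of these calls. Leaving out 1 library at a time, these 133 results did not pass in 179 fits and passed in 619. Leave-out results of single genes of the pathway lists are not given here.

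Replicate numbers were shared between groups, but same-numbered libraries did not deviate together (correlations of -0.101 to 0.0583 over genes), so no pairing was assumed. With the replicate number as a block, 29, 25, 5, 7, 0 and 21 muscle genes were called (in the order given above, the difference between responses before rraga mutants), and 1694, 2156, 1710, 2291, 20 and 2439 of all genes; 9 of the 133 called results did not pass (in triple mutants against wild type mybpha uninjected and myl6, cacng1a, tnnt2c, myh7bb and mymk with zymosan, in triple mutants with zymosan tnni4b.2 and myh9a, and scn4aa in rraga mutants; adjusted p from 0.0522 to 0.0694).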
